A study of Mus musculus with 16 samples.

Results

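Collagen genes were followed in the hippocampus of 2 mouse lines by one-colour microarray. A gene was taken as a collagen if its symbol had the form Col, number, a, number, as in Col3a1, and it was kept if some group had a probe for it well above background on each of its 4 arrays. The RefSeq gene table held 44 such genes, 39 of them had a probe on the array, and 35 were kept, out of 13458 named genes kept in all. The 35 comprised 11 of 11 fibrillar, 7 of 8 basement membrane, 5 of 5 neuronal and transmembrane, 3 microfibrillar, 5 fibril-associated and 4 network or other collagens. Col10a1, Col28a1, Col4a3 and Col6a6 had a probe but did not reach the background criterion, and Col12a1, Col20a1, Col22a1, Col6a3 and Col6a5 were not analysed here. Of the 35, 33 were well above background wherever they were measured. Col4a5 was so on 2 of 4 SAM/P-8 control arrays, and Col17a1 passed only through SAM/P-8 CCH, so it was bound to be high there.

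The study set SAM/P-8 against SAM/R-1 mice, the senescence-prone and senescence-resistant lines of the senescence-accelerated mouse, which per the labels both descend from AKR/J stock. Males aged 8 weeks at the start ate, for 8 weeks, a rodent diet containing 0.1% CCH (coral calcium hydride) or that diet without it. The 4 groups were SAM/P-8 CCH, SAM/P-8 control, SAM/R-1 CCH and SAM/R-1 control, each with 4 arrays of hippocampal RNA. Nothing in the labels ties an array to one animal, and p-values therefore measure only how far these samples spread. A slide carried 1 group, and slide and group cannot be told apart.

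Collagens are secreted or membrane proteins built as triple helices of polypeptide chains. Fibrillar collagens assemble into the cables of connective tissue and in the brain are known mainly from the meninges and from the walls of larger vessels, whereas type IV, XV and XVIII collagens belong to basement membranes around vessels and beneath the pia. A further group sits in membranes or is made by neurons, such as Col19a1, which mouse hippocampal interneurons make, and Col25a1, known as a component of amyloid plaques. The choroid plexus, which secretes cerebrospinal fluid and borders the hippocampus, has a stroma of its own.

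The 250 bases upstream of the transcription start are printed for the members whose levels define the results below, namely 2 fibrillar collagens that moved with meningeal markers, the strain-dependent Col11a2, and the 2 chains of type VIII collagen. They come from RefSeq on build GRCm38.p6 and are written 5′ to 3′ on the strand of the gene. Capitals mark matches on either strand to the letters TATAAA, called a TATA box here, to CCAAT, the letters of a CCAAT box, and to GGGCGG, called a GC box. None of the matches is taken as a site of a factor. The windows lie at chr6:4505368-4505617 (plus strand), chr1:45311288-45311537 (plus strand), chr17:34038888-34039137 (plus strand), chr16:57754738-57754987 (minus strand) and chr4:126286544-126286793 (plus strand).
Col1a2: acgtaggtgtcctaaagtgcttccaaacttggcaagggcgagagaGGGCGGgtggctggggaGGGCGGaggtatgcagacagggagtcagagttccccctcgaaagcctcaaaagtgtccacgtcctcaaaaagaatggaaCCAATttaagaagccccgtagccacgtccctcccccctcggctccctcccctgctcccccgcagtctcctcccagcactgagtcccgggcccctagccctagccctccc
Col3a1: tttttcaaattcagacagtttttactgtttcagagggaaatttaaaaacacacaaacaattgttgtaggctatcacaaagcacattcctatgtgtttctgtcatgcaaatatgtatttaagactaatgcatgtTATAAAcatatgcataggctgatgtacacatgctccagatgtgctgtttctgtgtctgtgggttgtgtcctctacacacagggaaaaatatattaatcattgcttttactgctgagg
Col11a2: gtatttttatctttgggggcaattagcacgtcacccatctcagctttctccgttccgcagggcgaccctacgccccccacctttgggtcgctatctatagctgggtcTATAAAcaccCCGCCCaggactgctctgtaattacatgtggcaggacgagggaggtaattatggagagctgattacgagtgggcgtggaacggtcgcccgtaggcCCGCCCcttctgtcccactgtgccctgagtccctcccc
Col8a1: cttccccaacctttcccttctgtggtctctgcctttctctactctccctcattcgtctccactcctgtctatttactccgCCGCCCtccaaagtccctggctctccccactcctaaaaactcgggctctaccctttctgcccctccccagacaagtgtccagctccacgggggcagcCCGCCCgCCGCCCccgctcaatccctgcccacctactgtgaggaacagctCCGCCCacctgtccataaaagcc
Col8a2: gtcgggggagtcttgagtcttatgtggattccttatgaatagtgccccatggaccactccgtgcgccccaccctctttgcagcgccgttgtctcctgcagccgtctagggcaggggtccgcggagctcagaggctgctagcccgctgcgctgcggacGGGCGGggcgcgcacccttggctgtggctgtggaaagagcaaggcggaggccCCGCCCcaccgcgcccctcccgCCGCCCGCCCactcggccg
The Col3a1 and Col11a2 windows held TATAAA, which 12.4% of 32851 RefSeq windows of the same length hold. Col1a2 held a CCAAT box, as 33.8% of all windows do, and 2 GC boxes, where 32.7% of windows hold 1 or more. The Col8a1 and Col8a2 windows held 4 GC boxes each, a pair of them overlapping in Col8a2, and neither of the other motifs. Windows were found for 29 of the 35 members, and of their 32 windows 4 held a TATA box, 13 a CCAAT box and 20 a GC box. Adjacent type IV genes Col4a1 and Col4a2 have overlapping promoters: the longer windows of 300 bases, which also take in the first 50 bases after the start, share 78 bases.

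Levels below are log2 signals relative to the 75th percentile of the array, which is 0, and levels of different genes are not compared because each probe has its own brightness. On single arrays 66.7% to 76.8% of spots were well above background. In SAM/P-8 this was 70.0% to 71.8% with CCH and 66.7% to 70.4% on the control diet. In SAM/R-1 it was 70.7% to 76.8% with CCH and 70.4% to 73.5% on the control diet. The part of this in the differences of dim members was not tested. Precision is limited by how many arrays there are. Several arrays stood apart in markers of tissue outside the hippocampus, scored as the mean log2 level of a marker list after subtraction of each gene's mean. The meningeal score, from 21 of 22 listed genes and without any collagen, was 0.83 to 0.93 on SAM/P-8 CCH replicates 1 and 4 and SAM/P-8 control replicate 1, and -0.81 to 0.32 on the other 13. The choroid plexus score, from 10 of 12 genes, was -3.16 to -1.24 on SAM/P-8 CCH replicate 3, SAM/P-8 control replicate 4, SAM/R-1 CCH replicates 2 and 3 and SAM/R-1 control replicate 4, against 0.17 to 1.80 on the other 11. SAM/P-8 CCH replicate 4 had a striatal score of 3.68, and no other array exceeded 0.22. All 8 hippocampal neuron markers kept, among them Prox1 and Zbtb20, were well above background on all 16 arrays.

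Collagens varied more between arrays of the same group than most genes did, and they did so in separate sets. The residual SD, the spread of arrays around their group mean, had a median of 0.27 over the 35 collagens and of 0.11 over all 13458 named genes, and 17 collagens lay above the 90th percentile of named genes. Col8a1 and Col8a2, the short-chain collagens that form the lattice of Descemet's membrane in the eye, varied most with SDs of 1.67 and 1.36. They were followed by Col9a3, a fibril-associated chain, at 0.76 and Col18a1, the basement membrane precursor of endostatin, at 0.60. At the other end Col11a2 had an SD of 0.11, and Col4a2 and Col4a1, the chains of the general type IV network, had 0.12 and 0.14. By class the median SD was 0.31 in fibrillar, 0.24 in basement membrane and 0.37 in neuronal and transmembrane collagens. In bulk tissue, fewer cells of a type and less RNA per cell cannot be told apart.

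**Figure D1:**
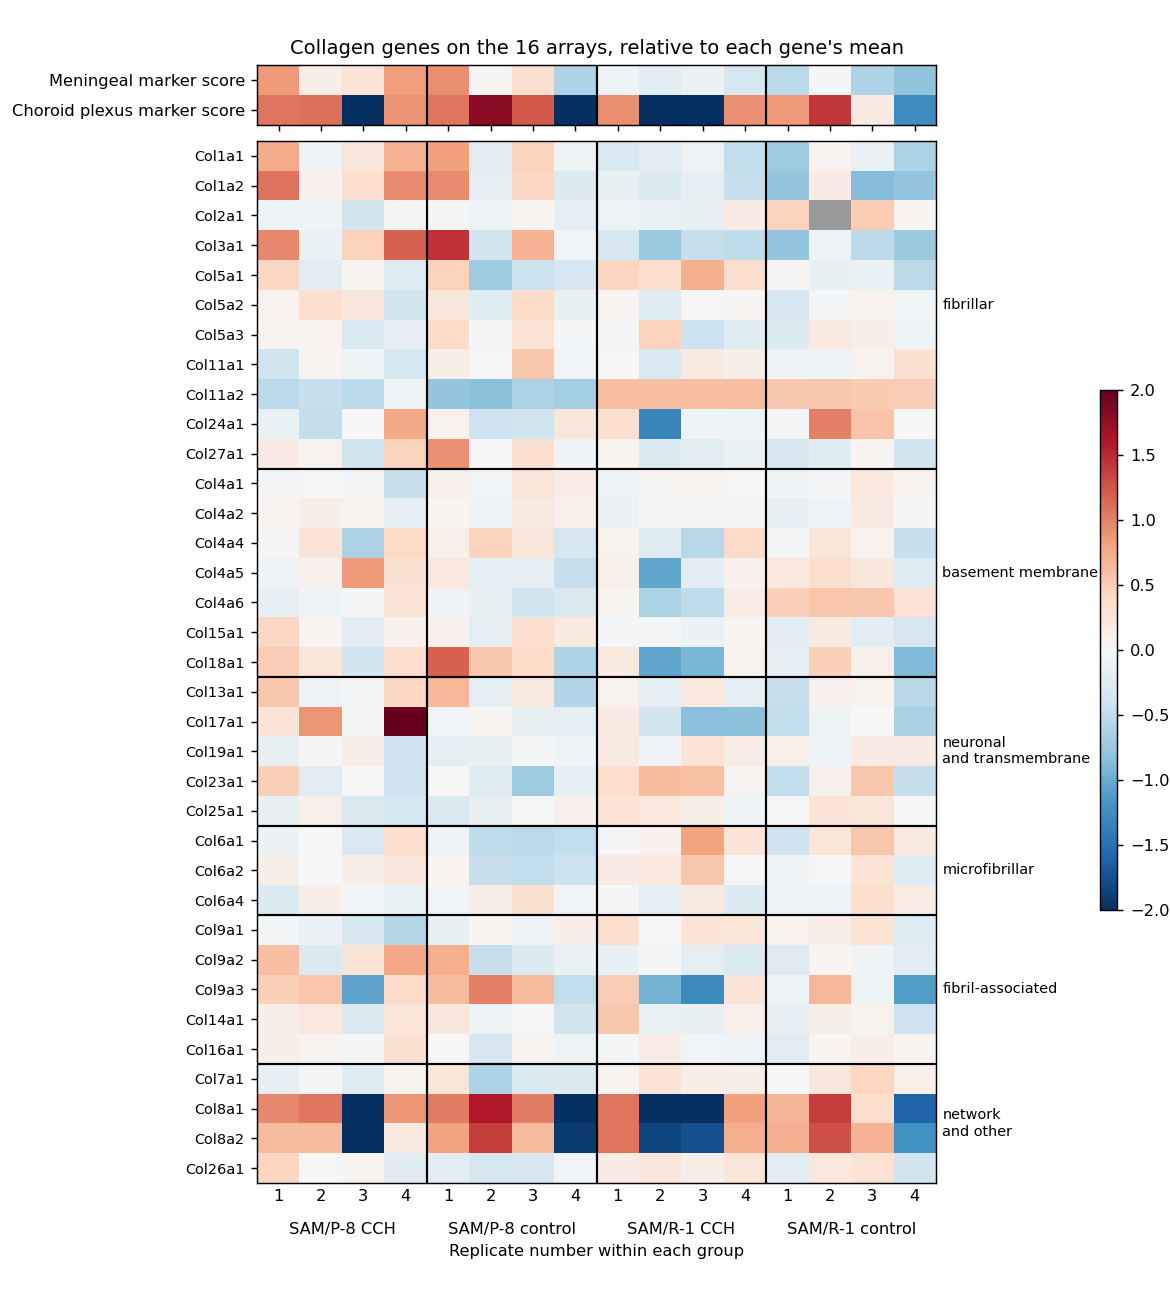
Level of each of the 35 kept collagens (lines down the page, by class) on each of the 16 arrays (columns, by group and replicate), as log2 difference from the mean of the gene, with the meningeal and choroid plexus marker scores above; the grey cell is a missing value. Col1a1, Col1a2 and Col3a1 are highest on the 3 arrays with the highest meningeal score, all SAM/P-8. Col8a1, Col8a2 and Col9a3 are lowest on the 5 arrays with the lowest choroid plexus score, and Col11a2 separates the strains.

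The type I and type III collagens, which make up the main fibres of connective tissue, were high on the same arrays as the meningeal markers. Col1a1, the alpha 1 chain of type I, measured -0.14, -0.95, -0.66 and -0.19 on the SAM/P-8 CCH arrays and -0.07, -1.10, -0.44 and -0.98 on the SAM/P-8 control arrays. Its SAM/R-1 levels were -1.19, -1.12, -0.99 and -1.37 with CCH and -1.61, -0.84, -1.03 and -1.52 on the control diet. SAM/P-8 CCH replicates 1 and 4 and SAM/P-8 control replicate 1 were thus the highest of 16, and the strains overlapped on the control diet but not on the CCH diet. Its partner chain Col1a2 measured 2.09, 1.11, 1.33 and 1.95 in SAM/P-8 CCH, and 1.96, 0.83, 1.43 and 0.74 in SAM/P-8 control. The SAM/R-1 arrays measured 0.87, 0.75, 0.83 and 0.55 with CCH, and 0.24, 1.17, 0.14 and 0.22 without it. The same 3 SAM/P-8 arrays were highest, at 1.95 to 2.09 against 0.14 to 1.43 on the other 13, and SAM/R-1 control replicate 2 stood above the rest of its group.

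Col3a1, the type III chain of distensible tissues and vessel walls, repeated the pattern. In SAM/P-8 its levels were -1.87, -2.97, -2.37 and -1.66 with CCH and -1.39, -3.22, -2.14 and -2.89 without. In SAM/R-1 they were -3.16, -3.57, -3.30 and -3.35 with CCH and -3.60, -2.91, -3.35 and -3.58 without. The 3 arrays with the highest meningeal score were again the 3 highest, and the strains did not overlap on the CCH diet but did on the control diet. Col13a1, a transmembrane collagen, and Col9a2, a fibril-associated chain, had the same 3 highest arrays, at -2.13 to -1.87 against -3.12 to -2.33 and at -0.82 to -0.66 against -1.88 to -1.13. In all, 5 of 35 collagens had these 3 arrays as their highest, while 1.66% of the 13458 named genes did. The other 8 fibrillar collagens, among them the fibril-nucleating Col5a1 and Col5a2, did not. The level of all these genes and the meningeal score were read from the same arrays, and the part of meningeal tissue in the collagen levels was not tested.

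**Figure D2:**
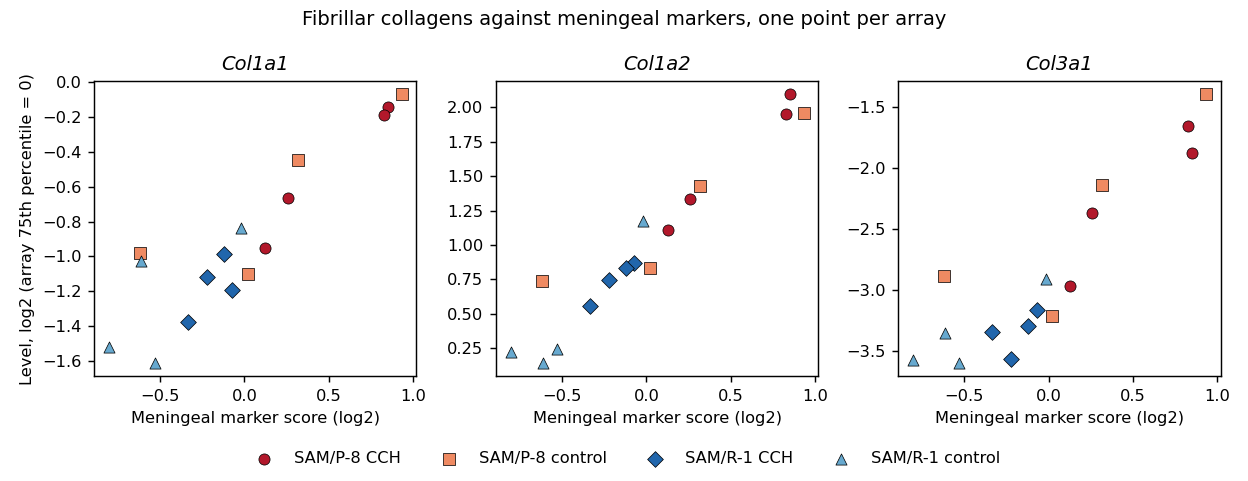
Log2 level of Col1a1, Col1a2 and Col3a1 (vertical axes) against the meningeal marker score of the same array (horizontal axes, log2), 1 point per array, with a symbol per group. The 3 arrays with scores of 0.83 to 0.93, all SAM/P-8, hold the highest level of each gene, and the SAM/R-1 arrays lie at scores of -0.81 to -0.02.

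A second set followed the choroid plexus markers instead. Col8a1 measured 1.58, 1.68, -1.64 and 1.50 in SAM/P-8 CCH, and 1.65, 2.22, 1.64 and -1.69 in SAM/P-8 control. The SAM/R-1 arrays measured 1.70, -2.06, -1.40 and 1.44 with CCH, and 1.30, 2.01, 0.98 and -0.99 without it. Every group held low arrays, and the 5 arrays low in choroid plexus markers were the 5 lowest, at -2.06 to -0.99 against 0.98 to 2.22 on the rest. Col8a2 measured -0.70, -0.70, -3.41 and -1.14 in SAM/P-8 CCH, and -0.52, 0.05, -0.70 and -3.25 in SAM/P-8 control. The SAM/R-1 arrays measured -0.27, -3.18, -3.09 and -0.61 with CCH, and -0.63, -0.04, -0.64 and -2.54 without it. The same 5 arrays were the lowest for both chains.

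Col9a3 was at -1.53 to -0.75 on these 5 arrays and at -0.36 to 0.75 on the others, and Col18a1 at -1.18 to -0.53 against -0.32 to 1.04. Col4a4, a type IV chain of specialised basement membranes, was at -3.26 to -2.89 against -2.66 to -2.18. These 5 of 35 collagens had the 5 arrays as their lowest, against 1.72% of the 13458 named genes, and no collagen belonged to both this set and the set of the meningeal arrays. Within groups, the array with the highest choroid plexus score was also the highest for Col8a1 and Col9a3 in 4 of 4 groups, as for 0.736% of named genes, and the array with the highest meningeal score was the highest for Col1a2 and Col18a1 in 4 of 4, as for 1.17%. For Col1a1 and Col3a1 the highest array was that of the meningeal score in 3 of 4 groups each. Their lowest array was that of the meningeal score in 2 of 4 groups for Col1a1 and in 1 of 4 for Col3a1. The part of choroid plexus tissue in these levels was not tested.

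**Figure D3:**
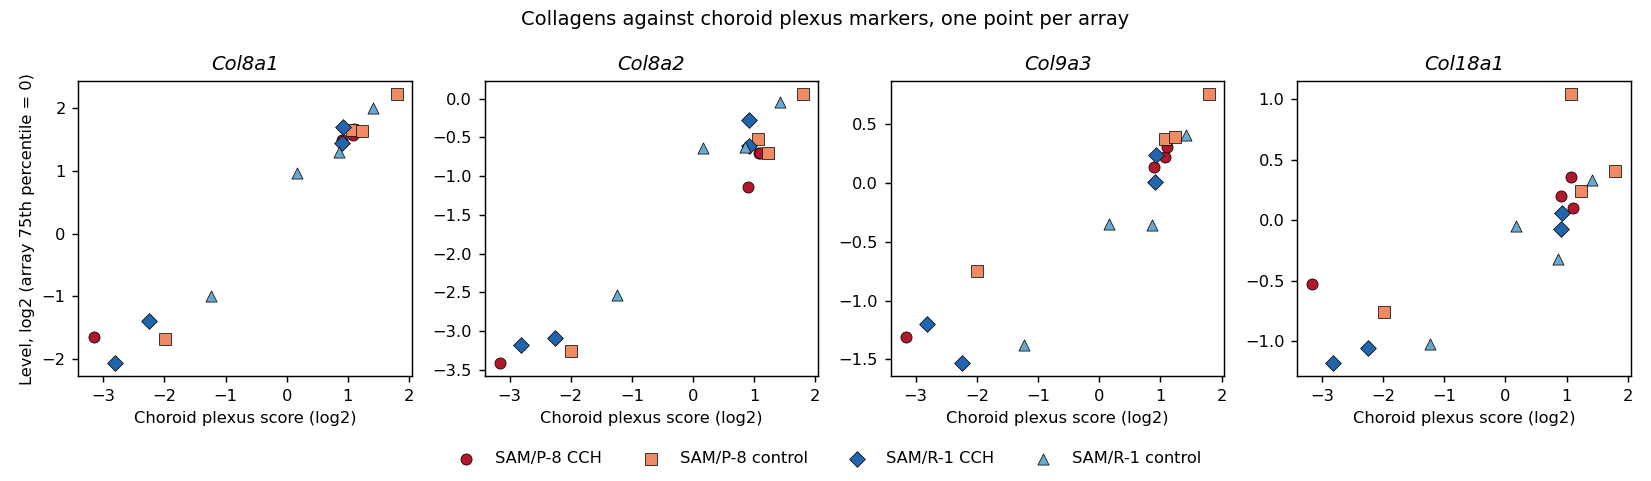
Log2 level of Col8a1, Col8a2, Col9a3 and Col18a1 (vertical axes) against the choroid plexus marker score of the same array (horizontal axes, log2), 1 point per array, with a symbol per group. The 5 arrays with scores of -3.16 to -1.24 come from all 4 groups and hold the 5 lowest levels of each gene, with Col8a1 at -2.06 to -0.99 there and at 0.98 to 2.22 elsewhere.

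Col19a1, Col25a1 and the general type IV chains Col4a1 and Col4a2 belonged to neither set. Col19a1 was nevertheless lowest on the 3 arrays highest in meningeal markers, all SAM/P-8. It lay at -0.355 to -0.094 there and at -0.090 to 0.328 on the others. The share of named genes that were lowest on those arrays was not counted. Col19a1 averaged -0.05 ± 0.23 with CCH and -0.06 ± 0.06 without it in SAM/P-8, and 0.19 ± 0.15 with CCH and 0.14 ± 0.12 without it in SAM/R-1 (SD, n = 4 each), with a residual SD of 0.15. Col25a1 averaged -3.26 ± 0.20, -3.17 ± 0.17, -2.96 ± 0.15 and -2.96 ± 0.15 in the same order of groups (SD, n = 4 each). Both had lower means in the SAM/P-8 groups, and the strains overlapped on both diets. Col4a1 lay between -0.54 and 0.14 over the 16 arrays and Col4a2 between 0.32 and 0.70, and SAM/P-8 CCH replicate 4, the array with the high striatal score, was the lowest for both.

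The strain comparison on the control diet asks how SAM/P-8 and SAM/R-1 differ without CCH. By the brightest kept probe of each gene, no collagen was higher in SAM/P-8 and 3 of 35 were lower, Col11a2, Col2a1 and Col4a6. The threshold was an adjusted p under 0.05 from limma, which 12.8% of all named genes passed, 6.17% higher and 6.61% lower. The 11 fibrillar collagens had 2 lower and a median difference of 0.14, the 7 basement membrane collagens 1 lower and a median of 0.09, and the 5 neuronal and transmembrane collagens none and a median of -0.19. All named genes had a median of -0.01. On the CCH diet 2 of 35 passed as higher, Col3a1 and Col17a1, and 2 as lower, Col11a2 and Col9a1, where 12.6% of named genes passed, 6.12% higher and 6.49% lower. Col17a1 was kept only through SAM/P-8 CCH, the group where it is high, so its place in that count carries no weight, and with no filter on dim probes neither it nor Col3a1 passed. The class medians were 0.11, 0.11 and -0.23 there, the last with Col17a1 included, and the median of all named genes was -0.02. The collagens thus did not pass more often than all genes did. At an unadjusted p under 0.05 there were 10 of 35 collagens on the control diet, where 26.4% of named genes had one. On the CCH diet there were 11 of 35, Col17a1 among them, where 27.3% had, so these counts lay near the background.

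**Figure D4:**
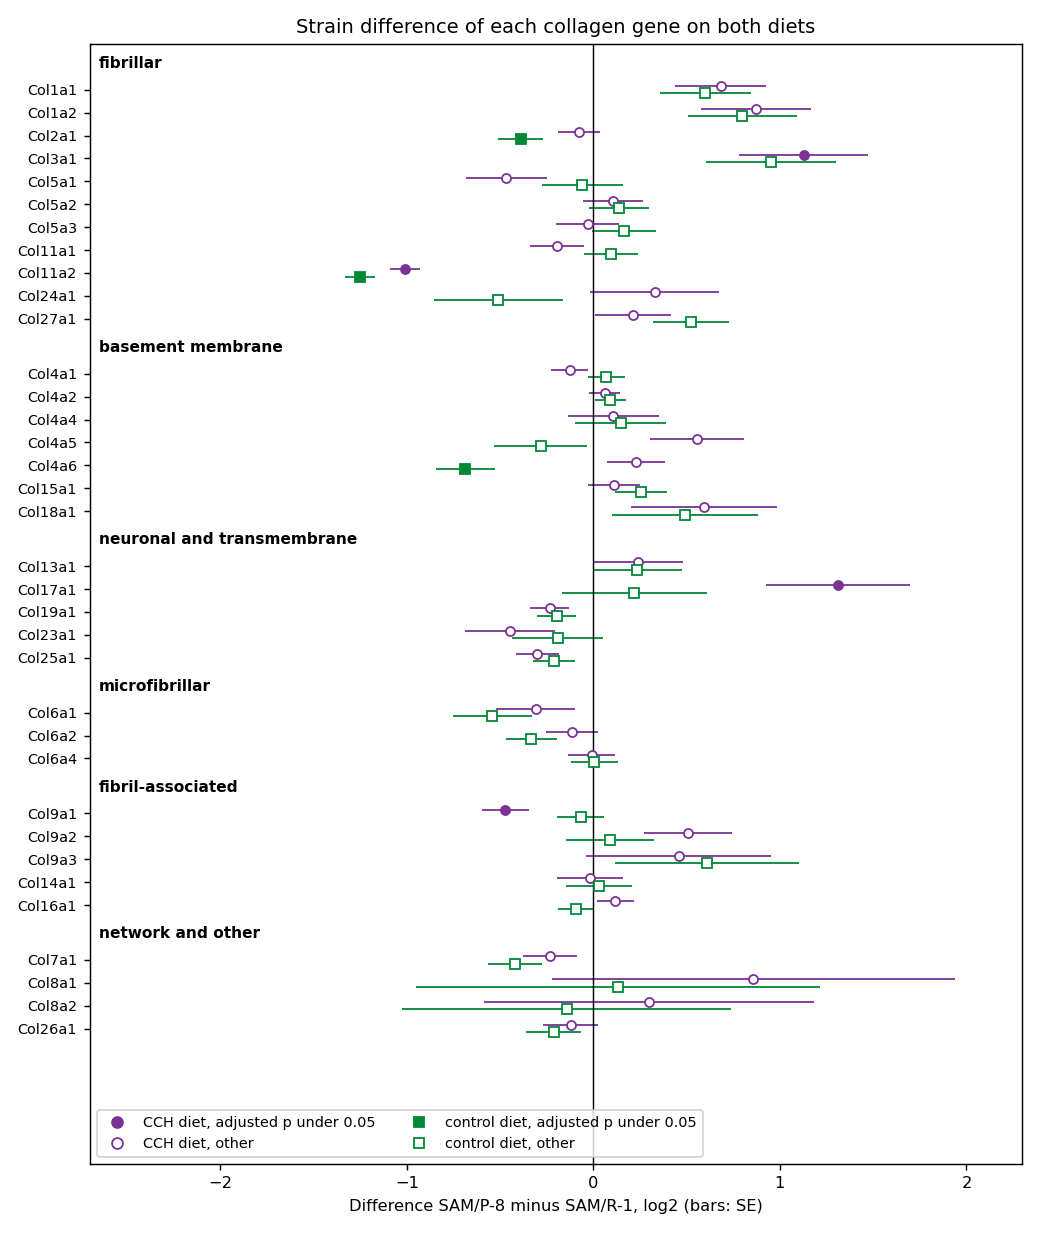
Difference SAM/P-8 minus SAM/R-1 in log2 units for each of the 35 collagens on the CCH diet (circles) and the control diet (squares), with bars of 1 SE from limma; filled symbols passed an adjusted p of 0.05. Col11a2 lies at -1.01 and -1.25, away from all other collagens on the negative side, and Col8a1 and Col8a2 carry the widest bars.

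Col11a2, a chain of type XI collagen that in cartilage joins type II fibrils, gave the clearest strain difference. It measured -0.43, -0.37, -0.43 and 0.01 in SAM/P-8 CCH, and -0.68, -0.73, -0.53 and -0.58 in SAM/P-8 control. The SAM/R-1 arrays measured 0.70, 0.71, 0.70 and 0.72 with CCH, and 0.64, 0.64, 0.62 and 0.59 without it. Every SAM/P-8 array lay below every SAM/R-1 array, and SAM/P-8 CCH replicate 4 lay apart from its group. Col11a2 was 2.38-fold lower in SAM/P-8 on the control diet (-1.25 ± 0.08 log2, SE, n = 4 and 4, adjusted p = 4.51e-08) and 2.01-fold lower on the CCH diet (-1.01 ± 0.08, adjusted p = 4.72e-07). A dimmer probe for Col11a2, well above background on 12 of 16 arrays, gave -1.12 (adjusted p = 0.003) and -0.33 (adjusted p = 0.357). Both Col11a2 probes thus read lower in SAM/P-8, and a sequence variant under a probe cannot be told apart from a lower level. The call of the brighter probe held without each array in turn and without the meningeal-high or choroid-low arrays.

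Col11a2 lies on chromosome 17 within the major histocompatibility complex, and the 20 nearest kept genes there, 10 on each side in the gene order of RefSeq, held 9 that passed on the control diet, 3 higher and 6 lower, and 9 that passed on the CCH diet, 4 higher and 5 lower. The other collagens that passed had 0 to 3 of 20 such neighbours. Over all named genes 12.8% passed on the control diet and 12.6% on the CCH diet. Psmb9, a subunit of the immunoproteasome, was higher in SAM/P-8 (0.74 and 0.67 on the control and the CCH diet), while H2-Ke6 (-0.31 and -0.32), the zinc transporter Slc39a7 (-0.16 and -0.15) and H2-DMa, which helps load peptides onto class II molecules (-0.26 and -0.32), were lower on both diets. Rxrb, the nearest gene on one side, and Ring1 did not pass on either diet.

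A basement membrane and a cartilage collagen passed on the control diet, and for each the probes disagreed. Col4a6, a type IV chain that pairs with Col4a5, measured -3.10, -3.18, -3.41 and -3.31 in SAM/P-8 control and -2.55, -2.47, -2.49 and -2.74 in SAM/R-1 control. All 4 SAM/P-8 arrays lay below all 4 SAM/R-1 arrays, a 1.61-fold lower level (-0.69 ± 0.16, adjusted p = 0.00855). A second Col4a6 probe, well above background on all arrays, gave 0.50 (adjusted p = 0.132), and the mean of both probes -0.10 (adjusted p = 0.732). Col2a1, the main collagen of cartilage, measured -2.95, -2.99, -2.86 and -3.09 in SAM/P-8 control and -2.46, -2.41 and -2.88 in SAM/R-1 control, where replicate 2 had no value because the spot was not uniform. The groups overlapped, and the difference was -0.39 ± 0.12 (SE, n = 4 and 3, adjusted p = 0.0478). Another Col2a1 probe gave 0.06, and leaving out any of 12 arrays, namely SAM/P-8 CCH replicates 1 and 2, all of SAM/P-8 control, and replicates 1 to 3 of both SAM/R-1 groups, ended the call (adjusted p 0.0547 to 0.192).

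On the CCH diet Col3a1, whose values are given above, was higher by 1.13 ± 0.35, a fold of 2.19 (adjusted p = 0.0439). Without the 3 arrays highest in meningeal markers the difference was 0.68 and did not pass (adjusted p = 0.172). Those 3 arrays, all SAM/P-8, are also the highest for Col3a1, so a smaller difference was fixed in advance. Removal of any 1 of 11 arrays also ended the call, at 0.94 to 1.19 (adjusted p 0.052 to 0.117). The exceptions were SAM/P-8 CCH replicate 2, SAM/P-8 control replicates 1, 2 and 4, and SAM/R-1 control replicate 2. On the control diet Col3a1 differed by 0.95 ± 0.35 (adjusted p = 0.0861), and it passed when SAM/P-8 control replicate 2 was left out (1.22, adjusted p = 0.0303). Col1a1 differed by 0.68 ± 0.24 on the CCH diet (adjusted p = 0.078) and 0.60 ± 0.24 on the control diet (adjusted p = 0.121). Col1a2 differed by 0.87 ± 0.29 (adjusted p = 0.0637) and 0.80 ± 0.29 (adjusted p = 0.0897). The 3 arrays are the highest for both genes, so the differences without them were bound to be smaller. They were 0.36 on the CCH diet and 0.41 on the control diet for Col1a1, and 0.47 and 0.56 for Col1a2. None of these passed.

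Most meningeal markers had higher means in SAM/P-8, but few passed. Of 21 measured, 19 had a positive and 2 a negative difference on each diet, with medians of 0.74 on the CCH diet and 0.69 on the control diet. On each diet 3 of 21 passed, all as higher. Of named genes 12.6% passed on the CCH diet, 6.12% as higher, and 12.8% on the control diet, 6.17% as higher. The share that passed was near the background over both directions and above that of higher genes alone, on a count of 3. This excess was not tested. The 3 were Tbx18 and Foxc1, transcription factors of meningeal and mural cells, and Islr. In SAM/P-8 the score ranged from 0.13 to 0.85 with CCH and from -0.62 to 0.93 without it, and in SAM/R-1 from -0.33 to -0.07 with CCH and from -0.81 to -0.02 without it. Of 9 defining markers, Crabp2 was not kept, and the other 8 were higher in SAM/P-8 in mean on both diets, 2 of them past the threshold. Tbx18 was 1.90-fold higher on either diet (0.93 ± 0.23, adjusted p = 0.0173 with CCH and 0.0155 without), Foxc1 by 0.65 and 0.69 and Islr by 0.56 and 0.60. Without the 3 meningeal-high arrays 0 of 21 passed on the CCH diet and 3 of 21 on the control diet, with medians of 0.39 and 0.37. Those arrays, all SAM/P-8, were picked by the score of these same markers, so smaller differences were fixed in advance. SAM/P-8 CCH then keeps only replicates 2 and 3, as it does below wherever these 3 arrays are left out, so calls on the CCH diet are harder to reach. The part of these markers in the Col3a1 difference was not tested, since leaving out arrays picked in this way cannot decide it.

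Col17a1, a hemidesmosomal transmembrane collagen of skin, measured -5.46, -4.83, -5.74 and -3.41 in SAM/P-8 CCH, where all 4 arrays were well above background, and -5.53, -6.08, -6.54 and -6.54 in SAM/R-1 CCH, where 2 were. Replicate 4 of SAM/P-8 CCH was far the highest, and the groups overlapped. The means differed by 1.31, by 0.83 without SAM/P-8 CCH replicate 4 and by 0.07 after background correction by normexp. Since Col17a1 was kept only through SAM/P-8 CCH, these differences are a description, and its passing the threshold is not read as a result. Col9a1, a fibril-associated chain of type IX, measured -4.79, -4.86, -5.07 and -5.32 in SAM/P-8 CCH and -4.42, -4.75, -4.48 and -4.51 in SAM/R-1 CCH. The groups did not overlap, and the difference of -0.47 ± 0.13, a 1.39-fold lower level in the SAM/P-8 arrays, passed (adjusted p = 0.0247). It did not pass without SAM/P-8 CCH replicate 4 (-0.37, adjusted p = 0.0686), SAM/P-8 CCH replicate 3 or SAM/R-1 CCH replicates 1, 3 or 4 (adjusted p 0.0554 to 0.0686 over the 5). Col11a2 was the 1 collagen called on the CCH diet without the 3 meningeal-high arrays, and likewise without the 5 choroid-low arrays, where fewer arrays enter the fit. On the control diet 4 were called without the 3 arrays, Col11a2, Col4a6, Col6a2 and the anchoring fibril chain Col7a1, all lower. The share of named genes that passed there is not given. SAM/P-8 control replicate 1 is the 1 control-diet array among the 3, and without it alone the same 4 were called. That array is the highest of its group for Col4a6, Col6a2 and Col7a1, so lower SAM/P-8 means of these genes were fixed in advance.

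**Figure D5:**
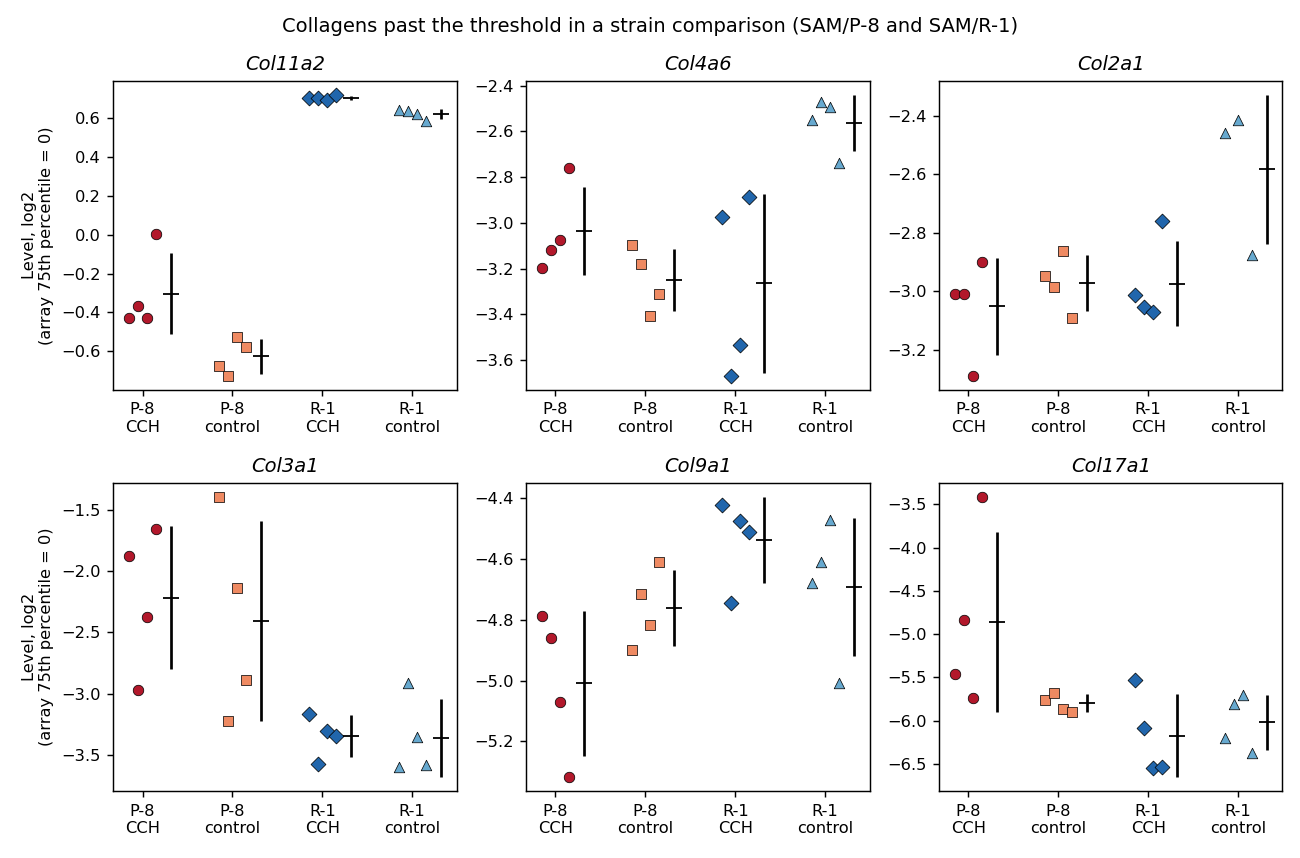
Log2 level on each array of the 6 collagens that passed an adjusted p of 0.05 in a strain comparison, by group, with the mean and SD of the group to the right of its points. Col11a2 separates all SAM/P-8 from all SAM/R-1 arrays, Col17a1 in SAM/P-8 CCH has replicate 4 highest at -3.41, and Col2a1 lacks 1 SAM/R-1 control array.

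The comparison of diets within SAM/P-8 asks whether CCH changed collagen expression in the senescence-prone line. No collagen passed, where 0.78% of named genes did, 0.409% higher and 0.372% lower, and 5 of 35 had an unadjusted p under 0.05, as 18.5% of named genes did, so the count was not above the background. Those 5, picked by that p, were Col11a2 (0.32 ± 0.08, adjusted p = 0.0718), Col6a2, a chain of beaded type VI microfibrils (0.45 ± 0.14, adjusted p = 0.113), Col17a1, Col11a1 (-0.35 ± 0.15) and Col4a1 (-0.23 ± 0.10). Second probes gave 0.18 for Col11a2, -0.21 for Col11a1 and 0.02 for Col4a1, and none of them passed. Col6a2 measured -4.08, -4.20, -4.08 and -3.97 in SAM/P-8 CCH and -4.16, -4.66, -4.68 and -4.63 in SAM/P-8 control, so that only control replicate 1 reached the CCH arrays, and leaving that array out made the difference 0.58 (adjusted p = 0.0414). Col17a1 was not well above background on any SAM/P-8 control array and was at least 1.70-fold higher with CCH (adjusted p = 0.21), a direction that the background criterion fixed. The class medians were 0.16 for fibrillar, -0.05 for basement membrane and 0.19 for neuronal and transmembrane collagens, and -0.02 for all named genes. Col17a1, with its fixed direction, enters both the neuronal and transmembrane median and the count of 5. SAM/P-8 CCH replicate 4 carried the striatal score of 3.68, whose part in these differences was not tested, and the class medians without single arrays ranged from -0.08 to 0.32 for the fibrillar class.

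Within SAM/R-1 no collagen passed either, where 0.104% of named genes did, 0.00743% higher and 0.0966% lower, and 3 of 35 had an unadjusted p under 0.05, against 11.2% of named genes. They were, picked by that p, Col4a6 (-0.70 ± 0.16, adjusted p = 0.115), Col5a1 (0.66 ± 0.22, adjusted p = 0.287) and Col2a1 (-0.39 ± 0.12, adjusted p = 0.256). Second probes of these genes gave 0.22, 0.06 and 0.07 in the same order (adjusted p = 0.732, 0.952 and 0.92), so they did not repeat the differences. The largest differences belonged to Col8a1 and Col8a2, at -0.90 ± 1.08 (adjusted p = 0.808) and -0.82 ± 0.88 (adjusted p = 0.78). Of the 5 choroid-low arrays 2 are SAM/R-1 CCH arrays and 1 is a SAM/R-1 control array, and without the 5 the Col8a1 difference was 0.14. Those 5 arrays are also the 5 lowest for Col8a1, so a less negative difference was fixed in advance. The part of choroid plexus tissue in it was not tested. All 10 choroid plexus markers had a negative difference, with a median of -1.10 and none past the threshold. The class medians were 0.04, -0.05 and 0.05 for fibrillar, basement membrane and neuronal collagens, and -0.02 for all named genes.

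The strain by diet interaction, the CCH effect in SAM/P-8 minus that in SAM/R-1, was past the threshold for no collagen and for 0.134% of named genes, 0.119% positive and 0.0149% negative, and 3 of 35 collagens had an unadjusted p under 0.05, against 4.82% of named genes. Col4a6 had the smallest p, at 0.91 ± 0.22 (adjusted p = 0.279), but its second probe gave -0.07 (adjusted p = 0.987). The brighter Col4a6 probe measured -3.20, -3.12, -3.07 and -2.76 in SAM/P-8 CCH, and -2.97, -3.67, -3.53 and -2.89 in SAM/R-1 CCH. The 2 low SAM/R-1 CCH arrays, replicates 2 and 3, were also low in choroid plexus markers, and the part of those markers in the Col4a6 level was not tested. The others, named after their values were seen, were Col4a5 (0.84 ± 0.35, adjusted p = 0.853) and Col9a1 (-0.40 ± 0.18, adjusted p = 0.873). The largest estimate belonged to Col17a1 (1.09 ± 0.55, adjusted p = 0.914), again a gene kept through SAM/P-8 CCH alone. The class medians of the interaction were 0.07 for fibrillar, -0.03 for basement membrane and -0.04 for neuronal and transmembrane collagens, the last with Col17a1 included. A p that misses the threshold does not show that the diets acted alike.

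Several enzymes that modify and trim collagen chains passed between the strains. Of 24 genes of synthesis and processing, 2 were higher and 2 lower in SAM/P-8 on the control diet, and 2 higher and 3 lower on the CCH diet, where 12.8% and 12.6% of named genes passed. P3h2, a prolyl 3-hydroxylase, lay in SAM/P-8 between -4.71 and -4.19 with CCH and between -4.61 and -4.44 without it, and in SAM/R-1 between -3.15 and -3.02 with CCH and between -3.29 and -2.82 without it. It was 2.65-fold lower in SAM/P-8 on the control diet (-1.41 ± 0.11, adjusted p = 2.93e-07) and 2.56-fold lower on the CCH diet (-1.36 ± 0.11, adjusted p = 4.25e-07). Plod2, a lysyl hydroxylase that shapes collagen cross-links, differed by -0.63 ± 0.09 on the control diet (adjusted p = 0.000174) and by -0.47 ± 0.09 on the CCH diet (adjusted p = 0.00261), lower in SAM/P-8 on both.

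Adamts14, a protease that removes the amino-terminal propeptide of procollagen, averaged -4.73 ± 0.21 with CCH and -3.51 ± 0.27 without it in SAM/P-8, and -4.61 ± 0.10 with CCH and -4.52 ± 0.28 without it in SAM/R-1 (SD, n = 4 each). SAM/P-8 control had the highest mean, and it exceeded SAM/R-1 control by 1.01 ± 0.15 (adjusted p = 0.000324), and within SAM/P-8 the level was 2.34-fold lower with CCH (-1.23 ± 0.15, adjusted p = 0.00152). The interaction was -1.13 ± 0.21 (adjusted p = 0.0596), and without the 5 choroid-low arrays the diet difference did not pass. Its relative Adamts2 was higher on the control diet, 1.86-fold (adjusted p = 0.0413). On the CCH diet the prolyl isomerase Ppib was the third lower gene, and Loxl1, of the lysyl oxidase family, was higher by 0.52 and Plod1 by 0.34. P3h1 was the other gene to pass between diets in SAM/P-8 (0.35 ± 0.07, adjusted p = 0.0427), and it did not pass without SAM/P-8 CCH replicate 4. Without the 3 meningeal-high arrays 3 of the 24 were higher and 2 lower on the control diet, and 0 higher and 1 lower, P3h2, on the CCH diet.

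Among 7 collagen receptors 2 were higher in SAM/P-8 on both diets and none lower, where 6.17% and 6.12% of named genes were higher on the control and the CCH diet. Ddr2, a receptor tyrosine kinase that fibrillar collagen activates, lay in SAM/P-8 between -0.91 and -0.29 with CCH and between -0.96 and -0.23 without it, and in SAM/R-1 between -3.19 and -3.04 with CCH and between -3.21 and -2.48 without it. The strains did not overlap, and Ddr2 was 5.39-fold higher on the control diet (2.43 ± 0.18, adjusted p = 2.37e-07) and 5.98-fold higher on the CCH diet (2.58 ± 0.18, adjusted p = 1.22e-07). Adgrg1, an adhesion receptor that binds type III collagen in the developing mouse brain, differed by 0.42 ± 0.08 and 0.39 ± 0.08 on the control and the CCH diet (adjusted p = 0.0016 and 0.00285). Ddr2 also passed on both diets without the 3 meningeal-high arrays, and Adgrg1 then passed on the control diet only. SAM/P-8 CCH keeps only replicates 2 and 3 there, so a call lost on the CCH diet cannot be told apart from fewer arrays.

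The remaining matrix lists held few genes that passed, where 12.8% of named genes passed between the strains on the control diet and 12.6% on the CCH diet. Of 13 laminins and other basement membrane proteins, Lamb2 was higher in SAM/P-8 on the control diet (0.33 ± 0.10, adjusted p = 0.0494) and Lama2, the laminin chain of muscle and glial basement membranes, lower on the CCH diet (-0.39 ± 0.12, adjusted p = 0.0368). Neither passed without the 3 meningeal-high arrays, and Sparc then passed on the control diet. Of 7 collagen-degrading proteases and inhibitors, the metalloproteinase inhibitor Timp3 was lower on the control diet (-0.46 ± 0.14, adjusted p = 0.0426), and without the 3 arrays Timp3 and Mmp14 were lower on the CCH diet. None of 8 small leucine-rich proteoglycans, which coat collagen fibrils, passed in any comparison, although 6 of 8 had a positive strain difference on each diet, such as Fmod (1.36 ± 0.45 on the control diet, adjusted p = 0.0582) and Ogn (0.73 ± 0.24, adjusted p = 0.056). Of the 10 listed, 6 are also in the meningeal list. No gene of the receptor, laminin, proteoglycan or protease lists passed in the diet comparisons or the interaction.

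Some vessel markers passed between the strains. By the brightest probe of each gene no basement membrane collagen passed as higher, although 5 of 7 had a positive difference on the control diet and 6 of 7 on the CCH diet. Of 11 endothelial markers 7 were higher in SAM/P-8 on the control diet and 1 on the CCH diet, where 6.17% and 6.12% of named genes were higher, among them the growth factor receptor Flt1 (0.78 ± 0.12, adjusted p = 0.000348) and Pecam1 (0.60 ± 0.16 and 0.57 ± 0.16 on the control and the CCH diet). Of 9 pericyte and smooth muscle markers 4 were higher on the control diet and 3 on the CCH diet, such as Rgs5 at 0.92 ± 0.10 and 0.69 ± 0.10 (adjusted p = 1.71e-05 and 0.000307). The endothelial score of SAM/P-8 ranged from 0.01 to 0.31 with CCH and from -0.01 to 0.46 without it, and that of SAM/R-1 from -0.18 to 0.14 with CCH and from -0.45 to -0.14 without it. Over the same arrays the differences of Col4a1 and Col4a2 were 0.07 ± 0.10 and 0.09 ± 0.08 on the control diet (adjusted p = 0.701 and 0.537). A second Col4a1 probe, well above background on all 16 arrays, gave 0.22 on that diet and passed as higher (adjusted p = 0.0483). On the CCH diet it gave 0.16 and did not pass (adjusted p = 0.161). The second Col4a2 probe gave 0.04 on the control diet (adjusted p = 0.843), so the reading of Col4a1 depends on the probe. Without SAM/P-8 CCH replicate 4, or without the 3 meningeal-high arrays, no endothelial marker passed on the CCH diet, and without those 3 arrays 5 passed on the control diet. None of 10 choroid plexus, 9 striatal, 4 red blood cell or 8 hippocampal neuron markers passed in any comparison. Their part in the collagen differences was not tested.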

How the data were processed

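Hippocampal RNA was hybridised to 16 one-colour Agilent arrays, 4 per group, with groups taken from the labels. The deposited array files hold the processed signal of each spot, and the medians of spot and local background, as an intensity made with Agilent Feature Extraction 9.5.3.1 per the file headers. They also hold flags of another kind, neither level nor ratio, set per spot for signal over background, uniformity and saturation per the file headers. The authors' deposited values are log2, with each probe centred on its median, and their scaling is not given in the sources used here. After centring it correlated with the scanner values at 0.9997 to 0.9999 per array, and its column medians ran from -0.0278 to 0.012.

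Levels are the log2 of the processed signal minus its 75th percentile on that array, averaged over a probe's spots after dropping 187 non-uniform ones. Of 41174 non-control probes, 29007 met the background criterion in some group and were kept, and 24844 of the 41174 were named through RefSeq accessions. The brightest kept probe, by its mean level, stood for a gene. Several kept probes existed for 17 members. They differed in sign for 3 members in the strain comparison on the control diet and for 4 on the CCH diet. In the diet comparisons they did so for 4 in SAM/P-8 and 8 in SAM/R-1, and in the interaction for 8. limma 3.58.1 in R 4.3.3 fitted 1 mean per group over all arrays (12 residual degrees of freedom, prior 2.32), with Benjamini-Hochberg adjustment over the 29007 probes and a threshold of 0.05. The fit was tested on simulated data. Normexp was run on spot and background medians. A fold against a group with no array above background is a bound, set by the dimmest signal that those arrays detected. The replicate number equalled the slide position on 16 of 16 arrays. Deviations of same-numbered arrays correlated from -0.313 to 0.357 and above 0.1 in 7 of 24 pairs. The numbers were therefore not taken to pair the samples, though pairs of unlike number were not compared and a pairing is not excluded.

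The members, classes and gene lists were chosen with earlier results of these data known. Values per array are given for members past the threshold in any comparison and for the 2 largest differences of each, and for the members described with the marker scores, which were chosen after their values were seen. For each list up to 4 genes past the threshold, or the 2 with the smallest p, could be named, and the text gives a selection of them. Positions of genes on the array are not given, since the build of the array design is not that of the sequence table; the gene order is that of GRCm38.p6.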

Additional observations from a re-analysis of the deposited data

Results flagged for a closer look

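In 10 of the 139 groups of 4 arrays in which a collagen was looked at, 1 array lay far from the other 3 by Dixon's test, where chance flags about 1 in 20 groups, and the same held for 2 marker scores. SAM/P-8 CCH replicate 3 was low for Col8a1 (-1.64), Col8a2 (-3.41) and Col9a3 (-1.31), and its choroid plexus score was -3.16. SAM/P-8 control replicate 4 was low for Col8a1 (-1.69). SAM/P-8 CCH replicate 4 was high for Col11a2 (0.0063) and low for Col4a1 (-0.54), and its striatal score was 3.68. SAM/P-8 control replicate 1, high in meningeal markers, was high for the type VI chains Col6a1 (-1.91) and Col6a2 (-4.16). SAM/R-1 control replicate 2 was high for Col1a2 (1.17), and SAM/R-1 CCH replicate 2 for Col16a1 (1.38).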

How the results depend on the processing

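Col11a2 kept its strain call on both diets under every alternative run. With normexp it was the 1 collagen called on each diet; probes called were then 1045 and 919 for the strain on the control and the CCH diet, and 2, 0 and 0 for CCH in SAM/P-8, for CCH in SAM/R-1 and for the interaction. With the mean over the probes of a gene, 1 collagen was called on the control diet, and with no filter 2 on the CCH diet. CCH in SAM/P-8 gave 154 probes under quantile normalization and 154 with no filter, and CCH in SAM/R-1 gave 57 under quantile normalization. With only probes well above background on all arrays, CCH in SAM/R-1 and the interaction gave 17 each. The replicate number as a block, which is not known to pair the samples, gave 132 probes for CCH in SAM/P-8 against 243 without it, and 20 for CCH in SAM/R-1 against 33, and ended the calls of Col17a1 and Col2a1. Chosen after seeing the data, leaving out the 3 meningeal-high arrays gave 2558 probes and 1 collagen for the strain on the CCH diet and 28 probes for CCH in SAM/P-8. Leaving out the 5 choroid-low arrays gave 1479 probes and 1 collagen, and 30, 2 and 13 probes for the diet comparisons and the interaction, and turned the sign of Col8a1 in SAM/R-1 to 0.14. Fewer arrays enter both settings. The 5 choroid-low arrays are also the 5 lowest for Col8a1, so a less negative difference was fixed in advance. Without single arrays the probes called ranged over 2975 to 4518, 2827 to 4156, 72 to 437, 2 to 45 and 35 to 55 in the 5 comparisons, in the order strain on the control diet, strain on the CCH diet, CCH in SAM/P-8, CCH in SAM/R-1 and interaction. Collagens called ranged over 2 to 4, 1 to 6 and 0 to 1 in the first 3 and stayed at 0 in the others. The 6 came without SAM/P-8 CCH replicate 2; the 1 came without SAM/P-8 CCH replicate 4 or SAM/R-1 CCH replicate 3 or 4. A slide block could not be fitted. The causes of these shifts were not tested. The dimmest members rest on signals near background.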
